A study of Homo sapiens with 18 samples.

Results

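The transcripts of 9 genes that the tumour suppressor p53 is known to switch on were followed in 3 human acute myeloid leukaemia cell lines: MDM2, BTG2, TP53INP1, ZMAT3, XPC, RRM2B, SESN1, FDXR and GDF15. They were taken from the deposited table by matching Ensembl gene IDs to symbols, and all 9 were found among 40184 IDs. RNA-seq of polyadenylated RNA was done on 18 cultures. Molm-14 and MV4-11 carry FLT3-ITD, an internal tandem duplication in a receptor tyrosine kinase, and SKNO-1 carries the KIT mutation N822K, per the labels. Each line received the vehicle DMSO or 500 nM RMC-4550 for 24 h, with 3 samples titled as biological replicates in each of the 6 groups. RMC-4550 is an allosteric inhibitor of SHP2, a phosphatase that carries signals from receptor kinases to RAS. The medium of SKNO-1 alone held GM-CSF, at 10 ng/mL, so line, kinase mutation and growth factor cannot be told apart. The comparison asks how the members stood in the 3 lines without drug and how they changed with it.

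p53 is a transcription factor that is held at a low level in unstressed cells, because MDM2, itself made from a p53 target gene, marks it for degradation. When DNA damage or other stress stabilises it, p53 binds paired decamers in the promoters or introns of its targets and raises genes for growth arrest, cell death, DNA repair and metabolic defence. In myeloid leukaemia, drugs that block MDM2 have been studied as a way to release p53.

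The promoter windows are shown because the paired decamer is the feature through which p53 is known to reach these genes. RefSeq windows on GRCh38.p14, from 250 bases before to 50 after each annotated start, were available for 7 of the 9 members, in 14 windows; the other members are TP53INP1 and RRM2B. Each window was searched for the p53 response element, as 2 decamers up to 13 bases apart, a motif that reads alike on both strands. The fixed C and G of each decamer had to match, so mismatches were allowed only at its other positions. With up to 2 mismatches over the 20 bases of both decamers, 2 of the 7 members held a match, MDM2 and FDXR. This compares with 3.62% of 27305 genes with windows of the same length. The members have more windows per gene than genes at large; counted by window, 3 of 14 held a match, against 2.93% of 35116. With up to 3 mismatches, a limit added after the data were seen, ZMAT3, SESN1 and GDF15 joined them, making 5 of 7 against 15.3% of genes, or 6 of 14 windows against 12.8%. Both window counts hold the same MDM2 match more than once, because it lies in 2 overlapping windows of that gene. No member window held a match with 1 mismatch or fewer, which 0.505% of genes did. In the sequences here, printed 5′ to 3′ on the gene's strand, capitals mark the decamers.
MDM2: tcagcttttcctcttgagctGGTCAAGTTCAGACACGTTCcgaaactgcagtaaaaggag
SESN1: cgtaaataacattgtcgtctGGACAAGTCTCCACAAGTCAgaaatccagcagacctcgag
FDXR: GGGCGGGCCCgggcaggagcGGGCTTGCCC
ZMAT3: GGGCCTGCTCcgccaaGCACATGCGC
GDF15: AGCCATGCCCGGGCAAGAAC

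The MDM2 stretch is chr12:68808903-68808962 on the plus strand, at an internal start of the gene, with adjoining decamers 94 to 75 bases before that start and outside annotated exons. The SESN1 stretch is chr6:109008998-109009057 on the minus strand, with adjoining decamers 49 to 30 bases before the start and likewise outside exons. The other matches overlap or adjoin an annotated exon. The FDXR match is chr17:74872996-74873025 on the minus strand, with 10 bases between the decamers, and the ZMAT3 match is chr3:179071867-179071892 on the minus strand, with 6 bases between them. In GDF15 the match is chr19:18386186-18386205 on the plus strand, 28 to 47 bases after the start. These matches are letters in a window and were not tested for binding.

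Levels are given in CPM, reads scaled to a common size of each sample's adjusted library. CPM does not correct for transcript length, so levels are compared between samples of 1 gene and not between genes. Libraries held 17434810 to 19959917 reads. In 14 libraries 5.07 to 7.02% of reads came from mitochondrial genes, and in 4 the share was 10.5 to 15.0%: replicate 2 of Molm-14 with RMC-4550, replicates 1 and 3 of MV4-11 with DMSO, and replicate 1 of MV4-11 with RMC-4550. Several results that touch these libraries are given with and without them. Without them MV4-11 has 1 DMSO library, replicate 2, and 2 treated ones, so any call there takes its spread from the other groups and assumes that the lone library varies like them. The myeloid markers CD33, MPO, SPI1, CEBPA, CSF3R and ANPEP reached 1 CPM in 5 or 6 of 6 cases in every group, with summed levels of 637 to 1396 CPM. Of 5 T-cell and 5 erythroid markers, 0 reached 1 CPM in any group. Up to 2 of 5 B-cell markers did (summed level 0.81 to 15.0 CPM), as did 1 to 3 of 5 fibroblast markers (2.46 to 17.7 CPM). RUNX1T1, part of the fusion gene known from SKNO-1, stood in the SKNO-1 DMSO group at 13.8 ± 0.61 CPM (SD, n = 3) and had at most 1 read in any library of the other lines. MV4-11 was the middle line without drug for 52.0% of 10190 genes, Molm-14 for 21.5% and SKNO-1 for 26.5%. Among 9261 genes that Molm-14 expressed at 10 CPM or more, MV4-11 held 0 under 1% of that level and SKNO-1 held 69. In reverse, among 9416 genes at 10 CPM or more in MV4-11, Molm-14 held 61 under 1% of the MV4-11 level. What sets this intermediate position of MV4-11 was not tested.

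Without drug, the 9 members did not split simply into a high pair of lines and a low SKNO-1. MDM2, SESN1 and GDF15 were lower in SKNO-1 than in each of the other lines, FDXR was higher than in each, and the remaining 5 members were not called in the same direction against both. Against the mean of Molm-14 and MV4-11, 5 of 9 were lower in SKNO-1 and 3 higher at an adjusted p under 0.05 (limma, Benjamini-Hochberg adjustment over all genes tested, as throughout). In bulk samples, fewer cells of a type and less RNA per cell cannot be told apart. Over all 16262 genes, 29.3% were lower and 30.0% higher in that comparison. The members' median log2 difference was -0.29, beside 0.02 for all genes. Called lower against both lines were 3 of 9 members, beside 18.5% of all genes, and 1 of 9 was called higher against both, beside 13.3%. Against Molm-14 alone, 5 members were lower and 2 higher in SKNO-1, where 31.9% and 32.1% of all genes were, with a members' median of -0.72 beside -0.01, and none of the 9 overlapped between the lines, as held for 82.2% of genes. Against MV4-11 alone, 3 were lower and 2 higher, where 22.5% and 18.6% of genes were, with a median of 0.05 beside 0.00, and 6 did not overlap, as held for 52.0% of genes. MV4-11 itself was lower than Molm-14 for 6 members and higher for 1, where 26.2% and 26.9% of genes were, with a median of -0.86 beside -0.02, and 8 did not overlap, as held for 60.0% of genes. The line comparisons share the DMSO samples and are not independent of each other. The ranking of the lines by mean level, called or not, differed by member: Molm-14 was highest for 6 of 9, SKNO-1 for 3 and MV4-11 for 0. The highest line was not counted over all genes. The middle line was MV4-11 for 6 of 9 members, SKNO-1 for 2 and Molm-14 for 1, beside 52.0%, 26.5% and 21.5% of 10190 genes.

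**Figure D1:**
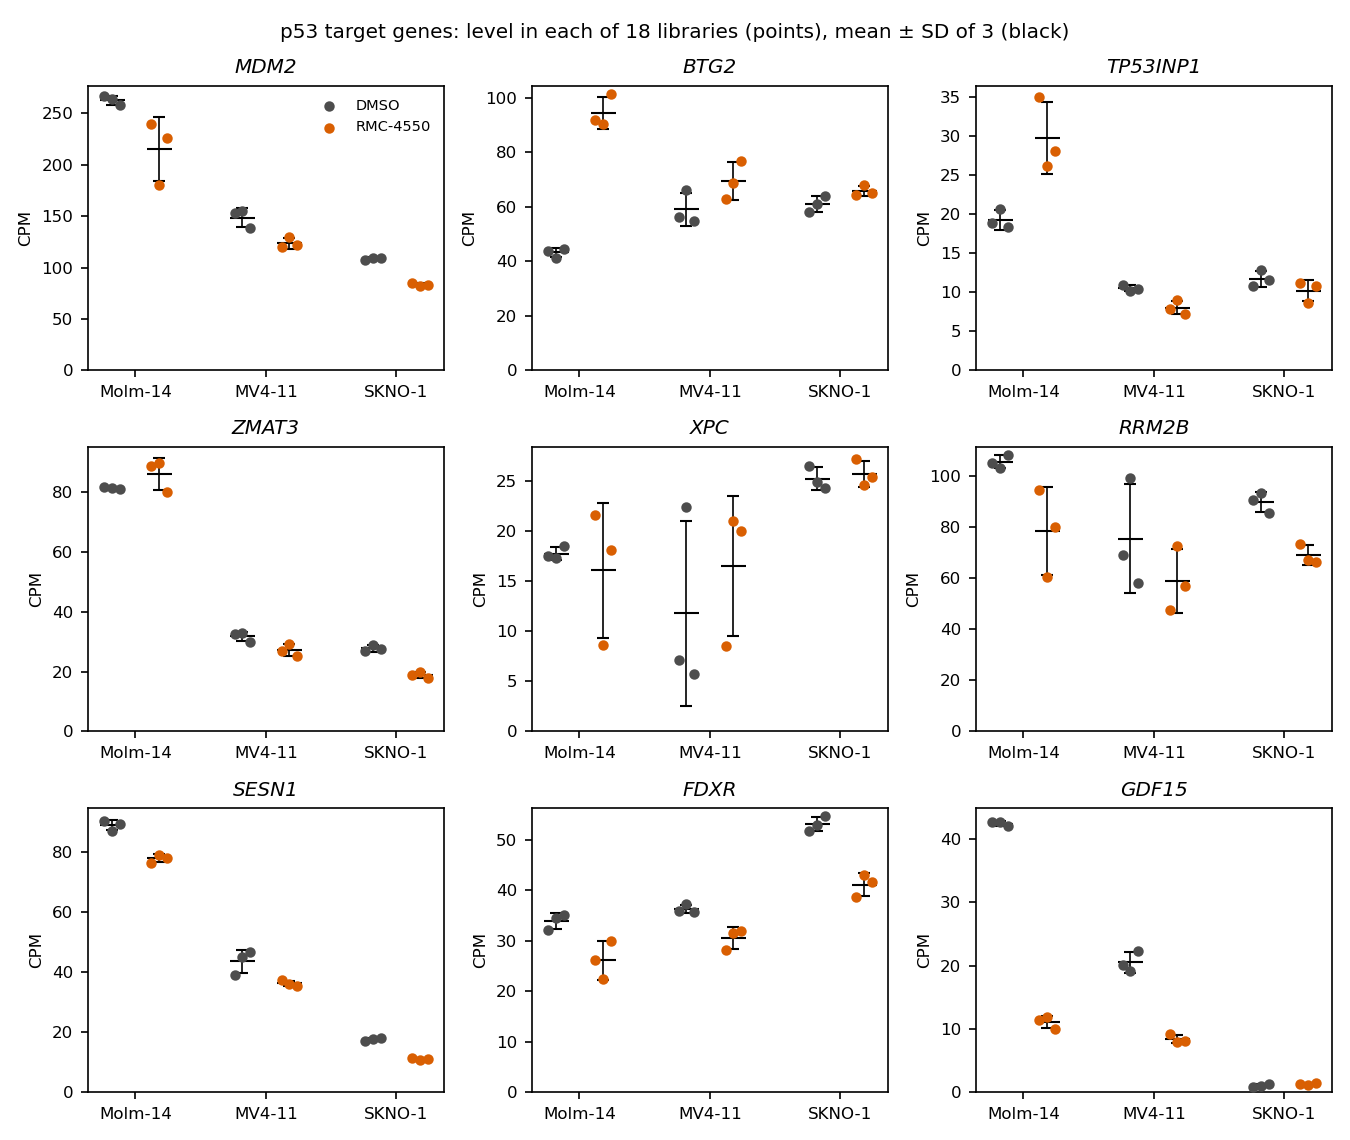
Level of each member in CPM (y axis, from 0) in each of the 18 libraries, by line (x axis) and treatment (grey, DMSO; orange, RMC-4550); black bars show the mean and SD of 3. MDM2, SESN1 and GDF15 step down from Molm-14 to MV4-11 to SKNO-1 without drug, while FDXR is highest in SKNO-1; the XPC points of Molm-14 and MV4-11 are split by library.

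MDM2, ENSG00000135679, encodes the ubiquitin ligase that closes the negative feedback on p53. Its DMSO level was 267, 264 and 258 CPM in Molm-14, 153, 155 and 138 CPM in MV4-11, and 107, 109 and 110 CPM in SKNO-1. The 3 lines formed 3 separate bands with no overlap. SKNO-1 was 2.42-fold lower than Molm-14 (log2 difference -1.27, SE 0.09, adjusted p = 2.7e-09) and 1.37-fold lower than MV4-11 (-0.45, SE 0.09, adjusted p = 0.00092). MV4-11 was also lower than Molm-14, by a log2 difference of -0.82 (adjusted p = 1.4e-06), so the gap between these lines was wider than that between MV4-11 and SKNO-1. MDM4, the related protein that binds p53 beside MDM2, was at 246 ± 5.49 CPM in Molm-14, 231 ± 21 CPM in MV4-11 and 157 ± 3.22 CPM in SKNO-1 (SD, n = 3). SKNO-1 was lower for MDM4 than both (log2 differences -0.65 and -0.55; adjusted p = 3.5e-06 and 6.6e-05), while Molm-14 and MV4-11 overlapped (-0.09, adjusted p = 0.35; -0.17 and called without the 4 libraries, from 1 MV4-11 library).

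Among the members tied to growth arrest and cell death, BTG2 encodes an antiproliferative cofactor of mRNA decay. BTG2 (ENSG00000159388) with DMSO was at 43.9, 41.3 and 44.6 CPM in Molm-14, 56.4, 66.0 and 54.9 CPM in MV4-11, and 58.0, 61.1 and 63.8 CPM in SKNO-1. Molm-14 was the low line and the others overlapped. BTG2 was higher in SKNO-1 than in Molm-14 (log2 difference 0.49, SE 0.09, adjusted p = 0.00015), and the difference from MV4-11 was 0.05 (95% interval -0.14 to 0.24, adjusted p = 0.68). TP53INP1 (ENSG00000164938), a stress-induced nuclear protein that promotes p53 activity and autophagy, was at 18.8, 20.7 and 18.3 CPM in Molm-14, 11.0, 10.2 and 10.4 CPM in MV4-11, and 10.7, 12.8 and 11.6 CPM in SKNO-1. Here Molm-14 was the high line and the other lines overlapped. SKNO-1 was below Molm-14 by a log2 difference of -0.72 (SE 0.13, adjusted p = 0.00014) and differed from MV4-11 by 0.15 (95% interval -0.13 to 0.43, adjusted p = 0.37). Against the mean of both lines TP53INP1 was just past the threshold (-0.29, adjusted p = 0.040), and this call ended with median-ratio scaling (-0.24), with quantile normalization (-0.20), with the 4 libraries of high mitochondrial share left out (-0.26) and without any 1 of 6 of the 9 DMSO libraries. ZMAT3 (ENSG00000172667), an RNA-binding zinc finger protein that acts in p53-dependent tumour suppression, was at 82.0, 81.4 and 81.2 CPM in Molm-14, 32.7, 32.8 and 29.9 CPM in MV4-11, and 26.8, 28.8 and 27.6 CPM in SKNO-1. Molm-14 stood above every library of the other lines, and SKNO-1 lay below MV4-11 without overlap. The log2 difference of SKNO-1 was -1.55 from Molm-14 (SE 0.08, adjusted p = 5.3e-11) and -0.20 from MV4-11 (SE 0.08, adjusted p = 0.060), and the latter did not pass the threshold.

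The repair members XPC and RRM2B differed between the DMSO libraries of MV4-11 as well as between lines. XPC (ENSG00000154767) encodes the damage sensor of nucleotide excision repair. Its DMSO level was 17.4, 17.2 and 18.4 CPM in Molm-14, 7.16, 22.4 and 5.75 CPM in MV4-11, and 26.5, 24.8 and 24.2 CPM in SKNO-1. SKNO-1 was above every library of the other lines, and the MV4-11 replicates were split, with replicate 2 near SKNO-1. The call of higher XPC in SKNO-1 than in MV4-11 (log2 difference 1.37, SE 0.43, adjusted p = 0.020) ended without the 4 libraries of high mitochondrial share (0.17, against 1 MV4-11 library) and without replicate 1 or 3 of MV4-11 (1.15 and 0.99) or replicate 1 of SKNO-1 (1.33). The difference from Molm-14, 0.51 with all libraries (adjusted p = 0.32), was called at the same size without them (0.51). The call against the mean of both lines (0.94, adjusted p = 0.041) was lost when any 1 of 8 of the 9 DMSO libraries was left out, with values over all 9 from 0.75 to 1.24. RRM2B (ENSG00000048392), the p53-inducible subunit of ribonucleotide reductase that supplies deoxynucleotides for repair, was at 105, 103 and 108 CPM in Molm-14, 69.2, 99.4 and 58.0 CPM in MV4-11, and 90.7, 93.4 and 85.5 CPM in SKNO-1. Molm-14 was highest and SKNO-1 fell within the MV4-11 range. Neither SKNO-1 difference passed the threshold (-0.23 from Molm-14, adjusted p = 0.28; 0.29 from MV4-11, adjusted p = 0.22), though the latter was called without MV4-11 replicate 2 (0.50), and the former without the 4 libraries (-0.23). RRM2B was called lower in MV4-11 than in Molm-14 (-0.52, adjusted p = 0.027), but not without the 4 libraries (-0.09, from 1 MV4-11 library) or without any 1 of 5 of the 6 DMSO libraries compared (-0.74 to -0.35 over all 6).

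**Figure D2:**
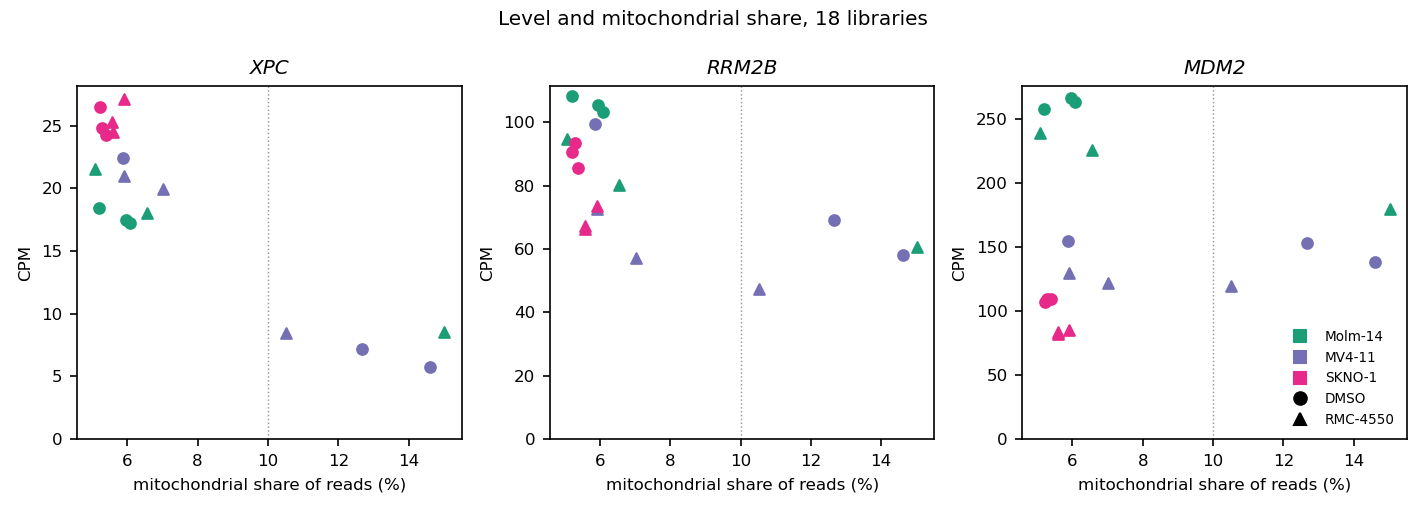
Level in CPM (y axis, from 0) of XPC, RRM2B and MDM2 against the mitochondrial share of reads in percent (x axis) in the 18 libraries; colour gives the line, circles DMSO and triangles RMC-4550, and the dotted line marks 10%. The 4 libraries to its right hold the lowest XPC levels, 5.75 to 8.58 CPM, against 17.2 to 27.1 CPM in the other 14. The MDM2 levels of the lines do not overlap. Within treated Molm-14, the library of high share is the lowest for MDM2, at 180 CPM beside 240 and 226 CPM.

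The metabolic and secreted members were SESN1, FDXR and GDF15. SESN1 (ENSG00000080546), a sestrin that restrains mTORC1 and oxidative stress, was at 90.3, 87.0 and 89.4 CPM in Molm-14 with DMSO, 39.2, 44.9 and 46.7 CPM in MV4-11, and 17.0, 17.7 and 18 CPM in SKNO-1. The lines were again 3 separate bands in the order seen for MDM2. SKNO-1 was 5.05-fold lower than Molm-14 (log2 difference -2.34, SE 0.07, adjusted p = 1.8e-13) and 2.47-fold lower than MV4-11 (-1.31, SE 0.07, adjusted p = 1.0e-09). FDXR (ENSG00000161513), the mitochondrial ferredoxin reductase needed for steroid and iron-sulfur cluster synthesis, ran the other way: 32.1, 34.6 and 35.2 CPM in Molm-14, 36, 37.3 and 35.7 CPM in MV4-11, and 51.8, 52.9 and 54.7 CPM in SKNO-1. SKNO-1 was above all 6 other DMSO libraries, by log2 differences of 0.65 from Molm-14 (SE 0.10, adjusted p = 2.2e-05) and 0.55 from MV4-11 (SE 0.10, adjusted p = 0.00034). Molm-14 and MV4-11 did not overlap for FDXR but differed by 0.10 (adjusted p = 0.41), a difference that was called with quantile normalization (0.24).

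GDF15 (ENSG00000130513), a secreted stress cytokine of the TGF-beta superfamily, was the member with the widest gap. With DMSO it was at 42.7, 42.6 and 42.0 CPM in Molm-14, 20.2, 19.1 and 22.3 CPM in MV4-11, and 0.83, 1.06 and 1.37 CPM in SKNO-1, where 18 to 29 reads per library were counted. It was near the detection filter in SKNO-1 and well expressed in the other lines. SKNO-1 was 39.1-fold lower than Molm-14 (log2 difference -5.29, SE 0.16, adjusted p = 7.7e-14) and 18.9-fold lower than MV4-11 (-4.24, SE 0.16, adjusted p = 5.9e-12).

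The wider set of p53 targets was described with lists of other target genes. Of 52 such genes, 46 passed the low-value filter, and 25 of them were lower and 7 higher in SKNO-1 than in the mean of the other lines, where 29.3% and 30.0% of all genes were, with a median log2 difference of -0.31 beside 0.02 for all genes. Against both lines separately, 11 were lower and 5 higher, where 18.5% and 13.3% of all genes were. CDKN1A, which encodes the cell cycle inhibitor p21, was at 589, 623 and 633 CPM in Molm-14, 343, 449 and 299 CPM in MV4-11, and 95.7, 105 and 99.6 CPM in SKNO-1. No library of one line reached another line's range. CDKN1A was 6.14-fold lower in SKNO-1 than in Molm-14 (log2 difference -2.62, adjusted p = 8.3e-10) and 3.58-fold lower than in MV4-11 (-1.84, adjusted p = 2.7e-07). In the growth arrest list 6 of 8 genes in the fit were lower in SKNO-1 against the mean. In that list 0 were higher by limma, with voom weights or at an unadjusted p under 0.05. In the cell death list 6 of 14 were lower and 2 higher. FAS, a death receptor, was among the lower at 4.51 ± 0.22 CPM in SKNO-1, 8.89 ± 1.79 CPM in MV4-11 and 23.2 ± 1.75 CPM in Molm-14 (SD, n = 3). In the DNA repair and metabolism list 4 of 10 were lower and 1, CMBL, a hydrolase, was higher (18.7 ± 1.18 CPM in SKNO-1, 2.66 ± 0.44 in MV4-11 and 1.23 ± 0.76 in Molm-14). Among targets with other roles 9 of 14 were lower and 4 higher. The counts of each list stand beside the same 29.3% and 30.0% of all genes. Against Molm-14, MV4-11 too had more of these targets lower than higher, with 23 of 46 lower and 5 higher, where 26.2% and 26.9% of all genes were, and a median of -0.37 beside -0.02.

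Paralogues and protein partners of the members, and p53 regulators, gave a mixed order. Of 11 partners in the fit, 7 were lower in SKNO-1 than in the mean of the other lines and 1 higher, where 29.3% and 30.0% of all genes were. BTG1, a relative of BTG2, was lower (log2 difference -1.56, adjusted p = 1.6e-11), and SESN3, a sestrin like SESN1, was higher (2.72, adjusted p = 1.3e-07), at 38.6 ± 1.92 CPM in SKNO-1, 19.1 ± 7.69 CPM in MV4-11 and 1.86 ± 0.18 CPM in Molm-14. The sestrin genes SESN1 and SESN3 thus had opposite orders of the 3 lines. Of 13 regulators, 5 were higher and 3 lower in SKNO-1, beside the same shares of all genes. CDKN2A, which encodes the MDM2 antagonist ARF and the cell cycle inhibitor p16, had 0 reads in all 3 Molm-14 DMSO libraries, 72.3 ± 21.8 CPM in MV4-11 and 84.6 ± 5.53 CPM in SKNO-1. Its difference between SKNO-1 and MV4-11 was 0.27 (adjusted p = 0.50).

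**Figure D3:**
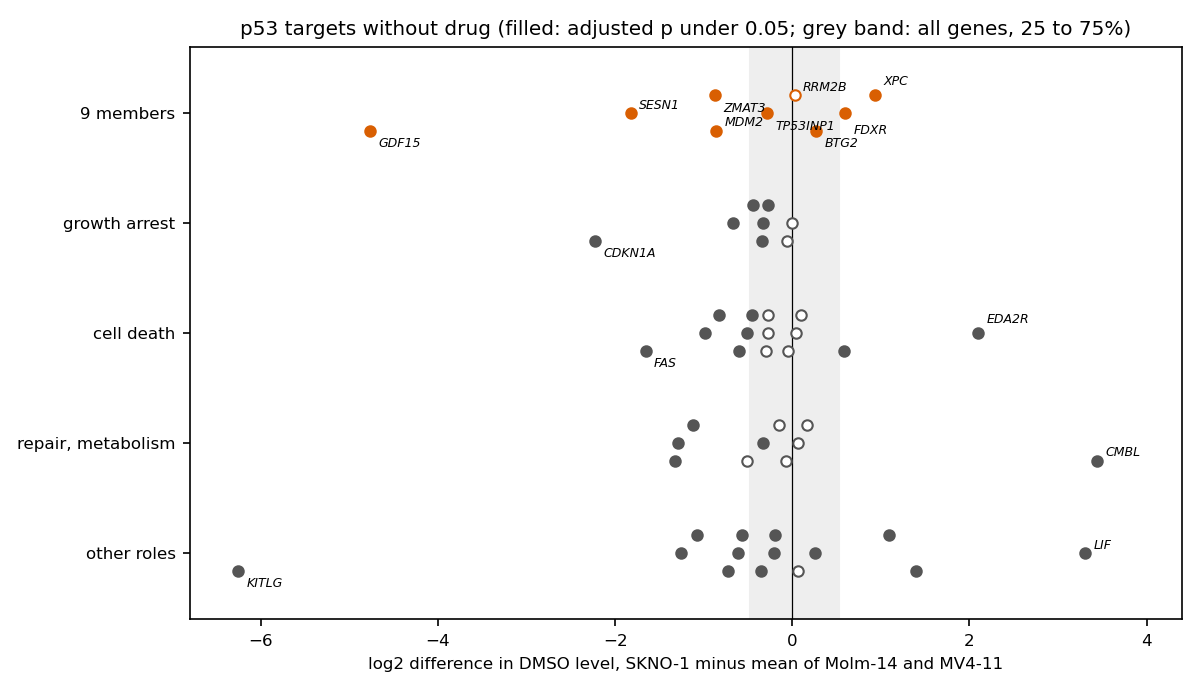
Log2 difference in DMSO level, SKNO-1 minus the mean of Molm-14 and MV4-11 (x axis), for the 9 members (orange) and other p53 targets in the fit (grey) by role (rows); filled points had an adjusted p under 0.05 and the grey band spans all genes from the 25th to the 75th percentile, -0.47 to 0.53. GDF15 (-4.77) and SESN1 (-1.82) lie farthest left among the members and XPC (0.94) farthest right. The XPC call was lost without any of 8 of the 9 DMSO libraries, left out singly. XPC was low in the MV4-11 libraries of high mitochondrial share, which enter its place here. KITLG, named because it lies outermost, had a mean of 0.0614 CPM in SKNO-1, so its place is not a measured fold.

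With RMC-4550, more members were called lower than higher in each line, as held over all genes. The member counts moved with the processing. Those called lower in Molm-14 were 2 with quantile normalization and 1 with a separate fit. Leaving out 1 library at a time in MV4-11 gave 0 to 2 members higher and 1 to 2 lower. In Molm-14, 2 of 9 rose (BTG2 and TP53INP1) and 4 fell (MDM2, FDXR, SESN1 and GDF15), where 21.5% of 13971 genes rose and 25.2% fell. In MV4-11, 2 fell (SESN1 and GDF15) and 0 rose, where 5.85% of 14739 genes rose and 8.03% fell; at an unadjusted p under 0.05, 1 member was higher, and voom weights also called 0. In SKNO-1, 4 fell (MDM2, ZMAT3, SESN1 and FDXR) and 0 rose, where 10.8% of 14670 genes rose and 16.2% fell (1588 and 2381 genes, or 1963 and 1933 with median-ratio scaling); at an unadjusted p under 0.05, 1 was higher, and voom weights again called 0. Median log2 changes of the members were -0.24, -0.26 and -0.37 for Molm-14, MV4-11 and SKNO-1, beside -0.06, -0.01 and -0.05 over all genes. Treated and DMSO samples did not overlap for 7, 6 and 6 members in the same order of lines, as held for 60.0%, 24.6% and 62.0% of genes. SESN1 was the one member called in all 3 lines. Without the 4 libraries of high mitochondrial share, 4 members were called lower in MV4-11, from 1 DMSO and 2 treated libraries with the spread taken from the other groups.

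**Figure D4:**
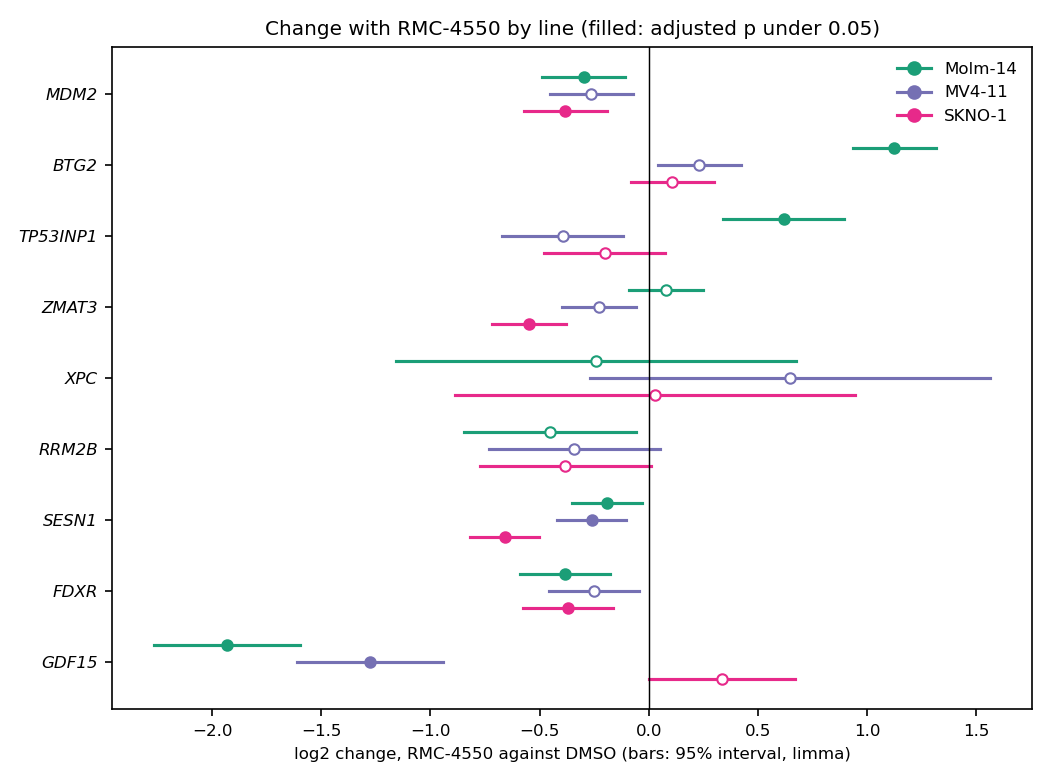
Log2 change with RMC-4550 against DMSO (x axis) for each member (y axis) in Molm-14 (green), MV4-11 (purple) and SKNO-1 (pink), with 95% intervals; filled points had an adjusted p under 0.05. GDF15 falls in Molm-14 (-1.93) and MV4-11 (-1.28) with no fall in SKNO-1 (0.34), and BTG2 is far above 0 only in the Molm-14 point (1.13).

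MDM2 with RMC-4550 was at 240, 180 and 226 CPM in Molm-14, 120, 130 and 122 CPM in MV4-11, and 84.9, 81.8 and 83.5 CPM in SKNO-1. In each line every treated library was below every DMSO library. The log2 change was -0.30 for Molm-14 (SE 0.09, adjusted p = 0.013), -0.26 for MV4-11 (SE 0.09, adjusted p = 0.064) and -0.38 for SKNO-1 (SE 0.09, adjusted p = 0.0046). The Molm-14 call was lost without replicate 2 of the treated samples, which had a high mitochondrial share (-0.17), and the MV4-11 change, without the 4 such libraries, was -0.30, called against a single DMSO library. The response in SKNO-1 did not differ detectably from the mean of the others (-0.10, 95% interval -0.33 to 0.13, adjusted p = 0.82). With RMC-4550, MDM4 was called lower in SKNO-1 (-0.23, adjusted p = 0.046), a call that ended without any 1 of the 6 SKNO-1 libraries.

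BTG2 with RMC-4550 was at 91.8, 90.5 and 101 CPM in Molm-14, 62.8, 68.6 and 76.7 CPM in MV4-11, and 64.3, 67.9 and 65.0 CPM in SKNO-1. All 3 treated Molm-14 libraries were above all libraries of the other lines, from the lowest line without drug, while the MV4-11 groups overlapped. The log2 change was 1.13 for Molm-14 (2.18-fold, SE 0.09, adjusted p = 1.2e-07), 0.23 for MV4-11 (adjusted p = 0.11) and 0.11 for SKNO-1 (adjusted p = 0.41). The MV4-11 change was called without its DMSO replicate 2 (0.31) or its treated replicate 1 (0.30). The SKNO-1 response was lower than the mean of the others by -0.57 (SE 0.11, adjusted p = 0.0074), a mean to which Molm-14 contributes most. TP53INP1 reached 35.0, 26.2 and 28.2 CPM in Molm-14, 7.87, 8.96 and 7.26 CPM in MV4-11, and 11.2, 8.68 and 10.8 CPM in SKNO-1. All treated Molm-14 libraries were above the DMSO libraries and all treated MV4-11 libraries below theirs. The change was 0.62 for Molm-14 (SE 0.13, adjusted p = 0.0012), -0.39 for MV4-11 (SE 0.13, adjusted p = 0.056) and -0.20 for SKNO-1 (adjusted p = 0.28).

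ZMAT3 with RMC-4550 was at 88.7, 89.8 and 80.1 CPM in Molm-14, 27.0, 29.4 and 25.2 CPM in MV4-11, and 19, 20 and 18 CPM in SKNO-1. The treated samples lay below the DMSO samples in MV4-11 and SKNO-1 and overlapped them in Molm-14. The fall was called for SKNO-1 (-0.55, SE 0.08, adjusted p = 9.0e-05) and not for MV4-11 (-0.23, adjusted p = 0.073), and the Molm-14 change was 0.08 (adjusted p = 0.43). The SKNO-1 response was lower than the mean of the others by -0.47 (SE 0.10, adjusted p = 0.011).

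XPC showed no call in any line with all libraries: treated levels were 21.6, 8.58 and 18 CPM in Molm-14, 8.50, 21 and 19.9 CPM in MV4-11, and 27.1, 24.5 and 25.3 CPM in SKNO-1. Treated and DMSO samples overlapped in every line. The log2 changes were -0.24, 0.65 and 0.03 (adjusted p = 0.67, 0.38 and 0.97), and without the 4 libraries of high mitochondrial share those of Molm-14 and MV4-11 changed sign, to 0.16 and -0.13. The MV4-11 rise was called without DMSO replicate 2 (1.25). That left DMSO replicates 1 and 3, both of high mitochondrial share, while treated replicates 2 and 3 were of low share. RRM2B was at 94.7, 60.5 and 80.2 CPM in treated Molm-14, 47.4, 72.5 and 57.0 CPM in MV4-11, and 73.5, 67.1 and 66.4 CPM in SKNO-1. Treated samples were below DMSO samples without overlap in Molm-14 and SKNO-1. RRM2B was not called in any line with all libraries (-0.45, -0.34 and -0.38; adjusted p = 0.055, 0.27 and 0.14). Without the 4 libraries the falls for Molm-14 (-0.28) and SKNO-1 (-0.38) were called. In MV4-11 the value was then -0.63, a call that rests on DMSO replicate 2 alone, the highest of the 3 at 99.4 CPM. The Molm-14 fall was also called without treated replicate 1 (-0.60). Among its partner subunits, RRM2, the S-phase subunit of the same enzyme, fell in every line, by log2 changes of -2.08, -1.002 and -1.91 for Molm-14, MV4-11 and SKNO-1 (adjusted p = 9.3e-07, 0.0033 and 3.9e-06; -1.85 and -1.36 for Molm-14 and MV4-11 without the 4 libraries).

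SESN1 with RMC-4550 was at 76.5, 79.1 and 78.0 CPM in Molm-14, 37.2, 36.1 and 35.5 CPM in MV4-11, and 11.5, 10.7 and 11.2 CPM in SKNO-1. Treated samples were below DMSO samples in each line without overlap. The log2 change was -0.19 for Molm-14 (SE 0.07, adjusted p = 0.047), -0.26 for MV4-11 (SE 0.07, adjusted p = 0.029) and -0.66 for SKNO-1 (SE 0.07, adjusted p = 7.7e-06). The fall was larger in SKNO-1 than in the mean of the others by -0.43 (SE 0.09, adjusted p = 0.014). The Molm-14 call was lost without any 1 of its 6 libraries (-0.21 to -0.18) and the MV4-11 call without any of 4 (-0.34 to -0.21 over its 6); both also ended with median-ratio scaling (-0.14 and -0.22) and quantile normalization (-0.04 and -0.23). The difference lost its call without replicate 3 of SKNO-1 with DMSO (-0.42). FDXR was at 26.1, 22.4 and 30.03 CPM in treated Molm-14, 28.1, 31.6 and 32.0 CPM in MV4-11, and 38.6, 43.1 and 41.7 CPM in SKNO-1, below the DMSO samples in each line. Its changes were -0.38 (SE 0.10, adjusted p = 0.0042), -0.25 (adjusted p = 0.11) and -0.37 (SE 0.10, adjusted p = 0.0095). The Molm-14 change for FDXR was -0.28 without the 4 libraries, and its call was lost with quantile normalization (-0.21), and the difference between SKNO-1 and the others was -0.05 (95% interval -0.31 to 0.20).

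GDF15 was the member whose change separated SKNO-1 most from the other lines. Its level with RMC-4550 was 11.5, 11.9 and 10.1 CPM in Molm-14, 9.19, 7.999 and 8.17 CPM in MV4-11, and 1.39, 1.16 and 1.52 CPM in SKNO-1, from 25 to 33 reads. Treated Molm-14 and MV4-11 samples fell clear of their DMSO samples, and the SKNO-1 groups overlapped. The fall was 3.81-fold in Molm-14 (log2 change -1.93, SE 0.16, adjusted p = 1.6e-07) and 2.43-fold in MV4-11 (-1.28, SE 0.16, adjusted p = 4.8e-05), and the SKNO-1 change was 0.34 (SE 0.16, adjusted p = 0.13). That change was 0.16 without SKNO-1 DMSO replicate 1 and was called without DMSO replicate 3 (0.51). The SKNO-1 response differed from the mean of the others by 1.94 (SE 0.19, adjusted p = 5.2e-05). GDF15 was near the filter in SKNO-1, so this difference rests on the falls in the lines that expressed it.

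Tested as a difference of responses, 1 of 9 members was called higher in SKNO-1 (GDF15) and 3 lower (ZMAT3, SESN1 and BTG2), where 1.17% of 16262 genes were called higher and 2.16% lower. Each of these differences shares the DMSO samples with the line responses above. Among 46 other p53 targets, 2 were called higher and 1 lower, with a median of -0.06 beside -0.04 for all genes. No regulator was called in either direction by limma or with voom weights, and at an unadjusted p under 0.05 there was 1 higher and 0 lower. No partner was called either, by limma, with voom weights or at an unadjusted p under 0.05.

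The other p53 targets also moved both ways with RMC-4550. In Molm-14, 6 of 43 tested rose and 16 fell; in MV4-11, 1 of 44 rose and 4 fell; in SKNO-1, 3 of 45 rose and 9 fell. The shares of all genes that rose and fell were 21.5% and 25.2% for Molm-14, 5.85% and 8.03% for MV4-11, and 10.8% and 16.2% for SKNO-1. Medians of these targets were -0.24, -0.05 and -0.21. TRIM22, an interferon- and p53-inducible TRIM protein, rose in every line, by 0.26, 0.67 and 0.56 (Molm-14, then MV4-11, then SKNO-1) (adjusted p = 0.0020, 1.6e-06 and 3.5e-06). FBXO22, an F-box subunit of a ubiquitin ligase, fell in every line, by -0.35, -0.60 and -0.58 (adjusted p = 0.028, 0.0037 and 0.0024), though the Molm-14 call was lost without any 1 of 4 of its libraries. FUCA1, a lysosomal fucosidase, rose in Molm-14 (0.92, adjusted p = 1.9e-06) and SKNO-1 (0.28, adjusted p = 0.040), the latter call being lost without any 1 of its 6 libraries. IER5 rose in Molm-14 (0.62, adjusted p = 0.00014), as did PHLDA3, a repressor of AKT (0.54, adjusted p = 0.00022). PMAIP1, which encodes the BH3-only death protein NOXA, fell in Molm-14 (-0.77, adjusted p = 3.4e-05) and rose in SKNO-1 (0.64, adjusted p = 0.00032). AEN, an apoptosis-enhancing nuclease, fell in Molm-14 (-1.14, or -0.86 without the 4 libraries) and SKNO-1 (-1.09; adjusted p = 0.00030 and 0.00082). CDKN1A, with 912, 545 and 861 CPM in treated Molm-14, 333, 389 and 412 CPM in MV4-11 and 81.8, 92.1 and 86.5 CPM in SKNO-1, was not called in any line (0.29, 0.07 and -0.21; adjusted p = 0.16, 0.83 and 0.40). Its Molm-14 rise was called without the 4 libraries of high mitochondrial share (0.53), as was its SKNO-1 fall (-0.21).

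Of the p53 regulators, 7 of 12 tested fell in Molm-14, 2 of 13 in MV4-11 and 4 of 13 in SKNO-1, where 25.2%, 8.03% and 16.2% of all genes fell, and 0 regulators rose in any line by limma, by voom weights or at an unadjusted p under 0.05. The checkpoint kinase genes CHEK1 and CHEK2, which act upstream of p53, fell in every line. In the same order of lines, the CHEK1 change was -1.45, -0.79 and -1.49 (adjusted p = 4.2e-06, 0.0039 and 5.9e-06; -1.23 and -0.97 for Molm-14 and MV4-11 without the 4 libraries), and the CHEK2 change was -0.32, -0.33 and -0.44 (adjusted p = 0.0013, 0.0044 and 0.00020). Of 11 partners tested, 7 fell and 1 rose in Molm-14, 2 fell and 1 rose in MV4-11, and 4 fell in SKNO-1, beside the same shares of all genes. MDM4 is in both lists and is counted among the falls of each in SKNO-1. BTG3, a relative of BTG2, fell in every line, by -0.97, -1.03 and -1.36 (adjusted p = 8.3e-05, 0.00021 and 5.6e-06), so the relatives BTG2 and BTG3 moved in opposite directions in Molm-14. RRM1, the large subunit that pairs with RRM2B or RRM2, was called lower in Molm-14 (-1.73, adjusted p = 0.0084), at -1.07 without treated replicate 2, which has a high mitochondrial share, and -2.08 without treated replicate 1, with 13.8 to 36.2 CPM in the 4 libraries of high mitochondrial share and 53.7 to 123 CPM in the other 14. TP53INP2, a relative of TP53INP1, rose in MV4-11 (0.64, adjusted p = 0.026), a call lost without any of 4 of its libraries.

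Likeness to MDM2 was measured by Pearson's r of log2 levels over the 18 libraries, which share 3 lines, and is a description. Of 16261 genes compared, 239 reached 0.95. The highest were TRIM71, EOLA2, RNF2, MARCHF6 and MAPK8, each at 0.99. Members ranged from SESN1 and ZMAT3 (both 0.95), GDF15 (0.84), TP53INP1 (0.76) and RRM2B (0.51) to BTG2 (-0.16), XPC (-0.25) and FDXR (-0.55). In the lists, those nearest to MDM2 included FAS (0.98), COP1 (0.97), FDX1, TRIAP1, DRAM1 and POLH (each 0.96), and CDKN1A was at 0.89. The members thus held genes that followed MDM2 across the libraries, differences between lines included, and genes that did not. Likeness within a line was not measured.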

How the data were processed

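RNA of 18 cultures was selected by poly(A) and read from DNA nanoballs (per the labels' protocols). The authors deposited 1 table of log2 values for 40184 Ensembl IDs. The submitters' processing notes name FastQC, STAR, limma and GRCh38; their roles, the counter, the annotation, the use of strand and any filter are not given in the sources used here. From the values, each deposited log2 value is that of reads plus 0.5 in CPM of an effective library (read total times a scaling factor, 0.890 to 1.11). Undoing this gave whole reads, within 0.05 of a read, for 100% of low values. Symbols matched 40069 IDs.

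Groups came from the labels. limma 3.58.1 (R 4.3.3; 1 coefficient per group, intensity trend, two-sided) was fitted to the deposited log2 values of the 16262 genes that reached 1 CPM in 3 or more samples; a line's response was tested for genes passing that filter within the line. Genes were called at a Benjamini-Hochberg adjusted p under 0.05 over all genes tested. Fold changes are on the deposited log2 scale and understate low genes. The replicates are titled biological, and whether they came from separate cultures started apart is not stated. The p-values rest on the spread between replicates pooled over all groups, not on that of the compared groups alone. The fit was tested on simulated data. Figures used Python 3.11.15 and matplotlib 3.10.9.

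The members and lists (regulators, partners, growth arrest, cell death, DNA repair and metabolism, and other targets, and cell type markers) were chosen with earlier results of these data known. The lists overlap: MDM4 is a regulator and a partner, SESN2 a partner and a repair and metabolism target, and PPM1D a regulator and a growth arrest target. Named were all members, MDM4, CDKN1A, listed genes called alike in all 3 lines, up to 3 per direction with the largest change at a mean of at least 5 CPM in each comparison, and the genes most like MDM2. Some genes that this rule names are not reported here and were left out of the lists. Alternatives were voom weights on recovered reads, other offsets, filters and scalings, a separate fit per line, a replicate block, no trend, the mitochondrial share as a covariate, leaving out each library and, added after seeing the data, leaving out 4 libraries over 10% mitochondrial reads.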

Additional observations from a re-analysis of the deposited data

Results flagged for a closer look

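The change with RMC-4550 in SKNO-1 differed from the mean change of Molm-14 and MV4-11 by limma's interaction term for 4 members. The log2 differences were 1.94 for GDF15, -0.57 for BTG2, -0.47 for ZMAT3 and -0.43 for SESN1. The sign for GDF15 came from falls in Molm-14 and MV4-11 with a low level in SKNO-1. That for ZMAT3 came from a fall in SKNO-1 with no call in either other line. For SESN1 it came from a larger fall in SKNO-1. For BTG2 it came from the rise in Molm-14, with no call in MV4-11 or SKNO-1. Among the other listed genes the differences were 0.92 for PMAIP1, 0.63 for GADD45A and -0.45 for NINJ1, a membrane protein of cell rupture (adjusted p = 0.00082, 0.045 and 0.028). GADD45A, a growth arrest gene, lost its call without any 1 of 15 of the 18 libraries, and NINJ1 without any 1 of 7. Of the line responses of NINJ1, only the rise in Molm-14 was called.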

How the results depend on the processing

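The replicate numbers showed no steady pairing of the samples. Same-number DMSO and treated samples of Molm-14 correlated at -0.05, -0.04 and 0.00 in their deviations. Those of MV4-11 correlated at 0.39, 0.59 and -0.40, and those of SKNO-1 at 0.13, 0.01 and 0.04. Other-number pairs of MV4-11 ran from -0.72 to 0.64. The positive MV4-11 pairs were those alike in high or low mitochondrial share. These values therefore cannot tell whether same-number cultures shared a batch. With the replicate block, members called lower in Molm-14 went from 4 to 3, those in the SKNO-1 comparison with the mean of the others from 5 to 4 lower and from 3 to 2 higher, and genes called in Molm-14 were 2833 higher and 3266 lower.

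Counts for the responses moved with the spread estimate and the mitochondrial share. In MV4-11, 862 genes higher became 1788 with the share as a covariate, 326 with a separate fit and 1300 without the 4 libraries, and 1183 lower became 3266, 345 and 2663. In SKNO-1, 1588 higher became 2937, 3453 and 3110, and 2381 lower became 4333, 4756 and 4708. For the difference of responses, 191 higher became 366 with log2(CPM + 1), 971 with the covariate and 928 without the 4 libraries, and 352 lower became 1560 and 1458 under the latter 2. With a mean of at least 5 CPM, which leaves fewer genes, genes higher were 3135 in SKNO-1 against the mean (from 4882), 3166 against Molm-14 (from 5216) and 2606 in MV4-11 against Molm-14 (from 4368).

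Members called lower in Molm-14, 4, were 2 with quantile normalization and 1 with a separate fit. In MV4-11, 2 lower became 1 with median-ratio scaling, no filter or a separate fit, 7 with the covariate and 4 without the 4 libraries, and 0 higher became 1 with quantile normalization, as in SKNO-1. SKNO-1 against MV4-11 had 1 member higher, from 2, with the covariate or without the 4 libraries, and MV4-11 against Molm-14 had 2, from 1, under both and with quantile normalization. Promoter matches went from 2 members to 0 at 0 or 1 mismatches and 5 at 3.

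Some values below the threshold changed sign, first with the covariate and then without the 4 libraries. RRM2B in SKNO-1 became -0.21 and -0.19 against the mean, and -0.15 and -0.15 against MV4-11. XPC became 0.34 and 0.16 for the Molm-14 response, and 0.12 and 0.34 for MV4-11 against Molm-14; without the libraries alone it became -0.13 for the MV4-11 response and 0.013 for the difference of responses. BTG2 in SKNO-1 against MV4-11 became -0.068 and -0.11. The CDKN1A response of MV4-11 became -0.16 and -0.17. MDM4 in MV4-11 against Molm-14 became 0.018 with quantile normalization. The cause was not tested.

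Leaving out 1 library at a time gave ranges. For MV4-11 these were 487 to 1420 genes higher, 727 to 1604 lower, 0 to 2 members higher and 1 to 2 lower; without MV4-11 DMSO replicate 3 or RMC-4550 replicates 2 or 3 the higher count was 549, 556 and 487. Members called lower in Molm-14 were 2 to 4 and members higher in SKNO-1 0 to 1. For the difference of responses 199 to 516 genes were lower, with the low values of 199, 201 and 215 without SKNO-1 DMSO replicates 2 and 3 and RMC-4550 replicate 1. SKNO-1 against MV4-11 had 1868 to 4202 genes and 1 to 3 members higher. Of values that changed sign, RRM2B ran from -0.093 to 0.101 for the difference of responses and -0.060 to 0.134 for SKNO-1 against the mean; XPC from -0.51 to 0.157 for the Molm-14 response, -0.014 to 0.063 for SKNO-1 and -0.48 to 0.0132 for the difference; BTG2 from -0.0013 to 0.131 for SKNO-1 against MV4-11; and CDKN1A from -0.060 to 0.23 for the MV4-11 response.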
